A study of Homo sapiens with 6 samples.

Results

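LPGAT1 and the other lysophospholipid acyltransferases of the AGPAT and LPCAT families were examined in NCI-H660 (H660) cells, an established line of neuroendocrine prostate cancer, with and without silencing of MUC1. The set comprised 10 genes out of 28008 gene symbols in the count table, and each was found there by an exact match of its symbol. The set was chosen by the lower LPGAT1 counts of the DOX-positive libraries, so the LPGAT1 change is given below as a description and carries no test, whereas the other 9 genes were included for their family names. All 6 libraries came from H660/tet-MUC1shRNA cells, which were selected with puromycin and carry a doxycycline (DOX)-inducible short hairpin RNA against MUC1 in the pLKO-tet-puro vector. The DOX-negative group (n = 3) received 0.1% DMSO as vehicle and the DOX-positive group (n = 3) received 500 ng/ml DOX, and the study treated its silenced cells for 7 days. The groups rest on the sample titles, since the treatment field of the labels has the same entry in all 6 samples. A DOX-treated line without the MUC1 hairpin was not analysed here, so an effect of DOX itself cannot be told apart from an effect of the silencing. The labels and the published methods also give different serum content for the culture medium.

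Membrane phospholipids carry a pair of fatty acyl chains on a glycerol backbone. A lysophospholipid has lost, or not yet gained, the second chain, and the acyltransferases add it from acyl-CoA. AGPAT enzymes act mainly on lysophosphatidate (LPA) to form phosphatidate, the precursor of all glycerophospholipids and of triacylglycerol. LPCAT enzymes mainly re-acylate lysophosphatidylcholine and related lipids in the deacylation and reacylation cycle (the Lands cycle), which sets how saturated the membranes are. LPGAT1 was named for the acylation of lysophosphatidylglycerol and also acts on other lysophospholipids.

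Most of these enzymes share a catalytic motif in which a histidine is followed, after 4 residues, by an aspartate. The coding sequences of GENCODE v29 (GRCh38) were searched for it. Its presence and the residue before the histidine differ between the members, largely along the AGPAT and LPCAT names by which they were included. The stretches are coding sequence, 5′ to 3′, with the histidine and aspartate codons in capitals.
LPGAT1: gtgaatCATcaggcaacaggaGATgtgtgc
AGPAT1: tccaacCACcagagctctctcGATctgctt
AGPAT2: tccaacCACcagagcatcctgGACatgatg
AGPAT3: ctcaacCACaacttcgagatcGACttcctc
LPCAT1: gcgcctCACtcgtcctacttcGACgccatc
LPCAT4: gccccaCACtccactttctttGACcccatt
These lie within single coding exons, at chr1:211793105-211793134 for LPGAT1, chr6:32170938-32170967 for AGPAT1, chr9:136677424-136677453 for AGPAT2 and chr21:43968047-43968076 for AGPAT3. The LPCAT1 stretch is at chr5:1494767-1494796 and the LPCAT4 stretch at chr15:34365078-34365107. AGPAT3 is on the plus strand and the other 5 are on the minus strand. In LPGAT1 the histidine is residue 101 of 370 and the codon before it encodes asparagine, as in AGPAT1, AGPAT2, AGPAT3, AGPAT4 and AGPAT5. The first match in LPCAT1, LPCAT2 and LPCAT4 lacks that asparagine, and the 487-residue coding sequence of LPCAT3, which belongs to the membrane-bound O-acyltransferase (MBOAT) class, holds no match.

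Total counts were between 47620696 and 74061121 per library. MUC1 was at 88.2, 90.2 and 79.6 CPM in vehicle replicates 1, 2 and 3 and at 36.7, 37.2 and 29.9 CPM in DOX replicates 1, 2 and 3, where CPM are counts scaled to equal library size with TMM factors. Its log2 fold change was -1.32 (SE 0.096, edgeR adjusted p = 0.00017). Of 7 neuroendocrine markers, 7 were counted and their summed level was 786 to 879 CPM without DOX and 656 to 761 CPM with DOX. Of the 7, 2 were called lower and 0 higher. All marker calls are to be read against 4.87% of all tested genes called in either direction (1.96% lower and 2.91% higher). Log2 fold changes were -0.50 for NCAM1, -0.45 for INSM1, -0.20 for CHGA, -0.18 for SCG2 and -0.029 for SYP. ENO2 was at 0.13, and CHGB was at 0.29 with no overlap between groups. Androgen receptor axis markers summed to at most 3.36 CPM in any library, with KLK3 at 0 in all 6. Fibroblast markers summed to 25.1 to 30.6 CPM without DOX and 23.4 to 27.9 CPM with DOX, with DCN and PDGFRB near 0. Within that sum 2 of 5 markers, COL1A1 and LUM, were called higher (log2 fold changes 0.60 and 1.06), whereas COL1A2 was at -0.71 and was not called. The groups did not overlap for COL1A1, LUM or COL1A2. Immune markers summed to 2.43 to 2.86 and 3.32 to 3.86 CPM, and endothelial markers to 4.19 to 5.43 and 7.17 to 8.69 CPM, with PTPRC, CD3E and PECAM1 at or near 0. The immune marker CD68 and the endothelial markers VWF and CDH5 were called higher, with log2 fold changes of 0.78, 0.97 and 0.94 and no overlap between groups. The immune marker CD14 (0.14) and the endothelial marker KDR (-0.74) overlapped between groups and were not called. The immune and endothelial sums were higher in the DOX-positive group, and the part of these markers in the results below was not tested.

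LPGAT1 mRNA was abundant in H660 cells and was lower in every DOX-positive library. Its level was 269, 287 and 297 CPM without DOX (replicates 1, 2 and 3) and 182, 161 and 177 CPM with DOX. The groups did not overlap, and the lowest DOX-negative library stood well above the highest DOX-positive one. The means were 285 ± 14.2 and 173 ± 11.3 CPM (SD, n = 3). On the log2 scale the difference was -0.72 (SE 0.076), which is a change of -39.1% with a 95% interval of -45.7% to -31.7%. As background, 4.87% of the 17026 genes tested were called by edgeR at an adjusted p under 0.05 (1.96% lower and 2.91% higher), and 13.3% had no overlap between groups with the lower values under DOX. In bulk RNA, fewer cells that express a gene and less of its RNA per cell cannot be told apart. This interval covers the spread among these 6 libraries only, and was computed on the contrast that led to the choice of the gene. The separation held in TPM, which scale counts by gene length and library, at 17.4, 19.7 and 15.7 without DOX against 14.1, 8.24 and 11.0 with DOX, where the spread was wider. LPGAT1 (ENSG00000123684.12) lies at chr1:211743457-211830772 on the minus strand of GRCh38. The RefSeq names table places the start of the antisense gene LPGAT1-AS1 within this interval and lists a pseudogene copy elsewhere in the genome, and the count table has no row of either name, so reads from them could have been counted as LPGAT1.

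**Figure D1:**
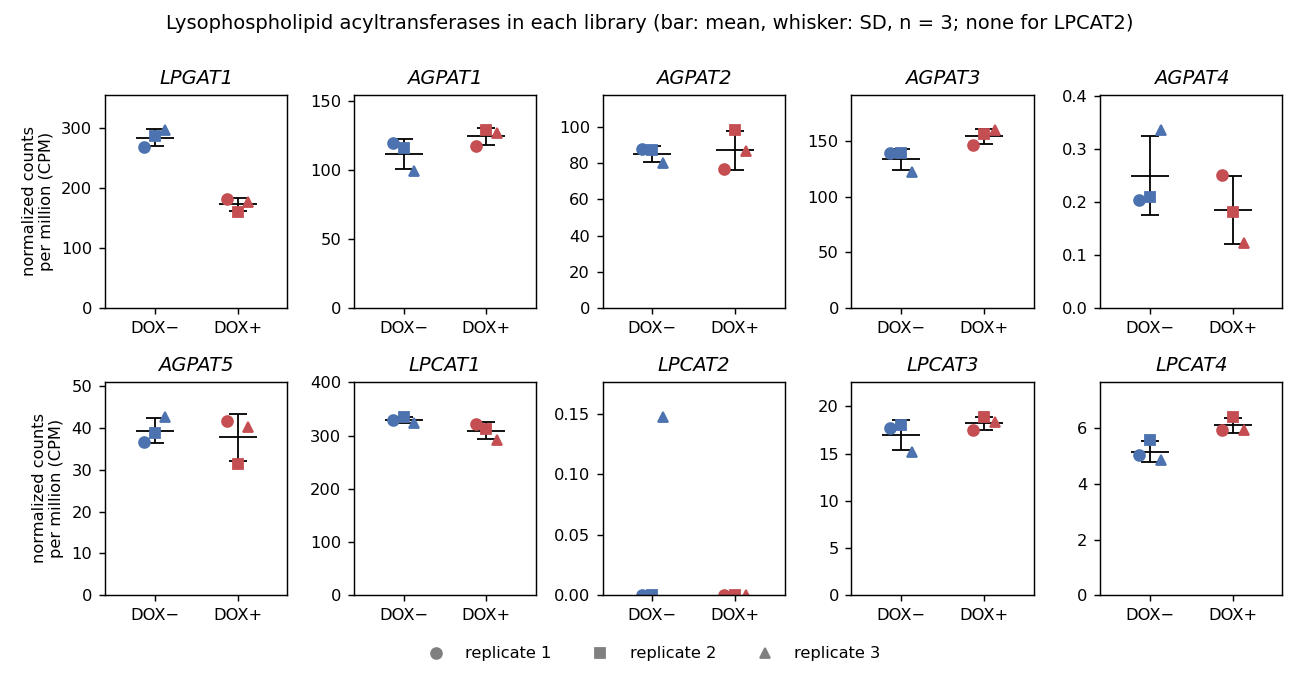
Normalized counts (CPM, linear axes from 0) of the 10 members in each library, DOX-negative in blue and DOX-positive in red, with a marker shape for each replicate, a bar at the mean and a whisker of 1 SD (n = 3, none drawn for LPCAT2). LPGAT1 is at 269 to 297 CPM without DOX and 161 to 182 CPM with DOX, whereas AGPAT2, AGPAT5 and LPCAT3 overlap between the groups.

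Of the 5 AGPAT genes, all were tested and 0 were called, against 4.87% of all tested genes. AGPAT1 and AGPAT2 are the endoplasmic reticulum enzymes that make phosphatidate, and AGPAT2 is the gene mutated in a congenital lipodystrophy. AGPAT1 had 119, 116 and 99.1 CPM without DOX and 117, 129 and 126 CPM with DOX. The groups overlapped, since DOX-positive replicate 1 was below DOX-negative replicate 1, and the log2 fold change was 0.16 (SE 0.084, adjusted p = 0.32). AGPAT2 was at 87.4, 87.3 and 79.9 CPM without DOX and 76.6, 98.1 and 86.5 CPM with DOX. Its DOX-positive libraries lay on both sides of the DOX-negative ones (log2 fold change 0.036, SE 0.093, adjusted p = 0.87). The 95% interval of the AGPAT2 difference ran from -10.8% to 17.9%.

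AGPAT3, which favors polyunsaturated acyl chains, was higher in each DOX-positive library. Its level was 139, 139 and 123 CPM without DOX and 147, 157 and 160 CPM with DOX. These groups did not overlap, but the log2 fold change of 0.21 (SE 0.077) did not pass the threshold after adjustment over all genes (adjusted p = 0.14). AGPAT5, a mitochondrial family member, had 36.7, 38.8 and 42.6 CPM without DOX and 41.8, 31.3 and 40.3 CPM with DOX. DOX-positive replicate 2 was the lowest of the 6, the others were intermixed, and the log2 fold change was -0.057 (SE 0.11, adjusted p = 0.82). AGPAT4 was close to the limit of detection, with 13, 13 and 16 counts without DOX and 19, 10 and 9 counts with DOX. Its log2 fold change of -0.39 had an SE of 0.39 (adjusted p = 0.61), so a change from -57.5% to 36.6% lies within the 95% interval.

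Among the phosphatidylcholine-remodeling enzymes, LPCAT1 was the most highly counted. LPCAT1 makes the disaturated phosphatidylcholine of lung surfactant, and is expressed in many tumors. It had 329, 335 and 323 CPM without DOX and 322, 313 and 292 CPM with DOX. The groups did not overlap, but the nearest libraries were less than 1 CPM apart, and the log2 fold change was -0.091 (SE 0.070, adjusted p = 0.50). The 95% interval for LPCAT1 was -15.6% to 4.42%, which does not include the size of the LPGAT1 difference, although LPGAT1 was chosen for its fall. LPCAT4 was at 5.02, 5.58 and 4.85 CPM without DOX and 5.95, 6.40 and 5.95 CPM with DOX, so that the groups did not overlap. Its log2 difference was 0.24 (SE 0.11, adjusted p = 0.23).

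LPCAT3 introduces linoleoyl and arachidonoyl chains into phosphatidylcholine and is the MBOAT-class member of the set. It had 17.7, 18.1 and 15.1 CPM without DOX and 17.5, 18.9 and 18.3 CPM with DOX. The groups overlapped (log2 fold change 0.10, SE 0.093, adjusted p = 0.59). LPCAT3 overlaps EMG1 in the RefSeq names table, EMG1 had a mean of 976 counts per library against an LPCAT3 mean of 1113, and the strand setting of the counting is not given in the sources used here, so the division of reads between this pair is uncertain. LPCAT2, which also makes platelet-activating factor in inflammatory cells, had 7 counts in DOX-negative replicate 3 and 0 in the other 5 libraries. A count of 0 allows a level of up to 3 counts, or 0.0397 to 0.0546 CPM in those libraries (counting error only), so LPCAT2 was not detectable at this depth in them, and it was removed by the count filter.

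Of the 9 genes other than LPGAT1, 8 passed the filter on low counts and 0 were called at an adjusted p under 0.05 by edgeR, against 4.87% of the 17026 genes tested. At an unadjusted p under 0.05 there were 2 of the 8, AGPAT3 and LPCAT4, near the 21.1% of all tested genes. DESeq2, limma-voom and limma-trend on TPM each called 0 of these members. Over all genes, these fits called 1354 of 22557, 676 of 17026 and 30 of 11707. The TPM fit called so few genes that its 0 adds no support. Of the 8, 5 had a positive and 3 a negative log2 fold change, with a median of 0.068 against 0.00034 over all tested genes. The groups did not overlap for 3 of the 8 (AGPAT3, LPCAT1 and LPCAT4), against 28.1% of all tested genes (14.8% with the higher and 13.3% with the lower values under DOX). A p above the threshold does not show that these genes were equal in both groups, and the intervals above give the differences that remain possible. Placed by absolute change, LPGAT1 was within the top 3.98% of all tested genes and AGPAT3 within the top 32.6%. LPGAT1 was chosen for its change and AGPAT3 was not, so these places cannot be compared and the first is a description.

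**Figure D2:**
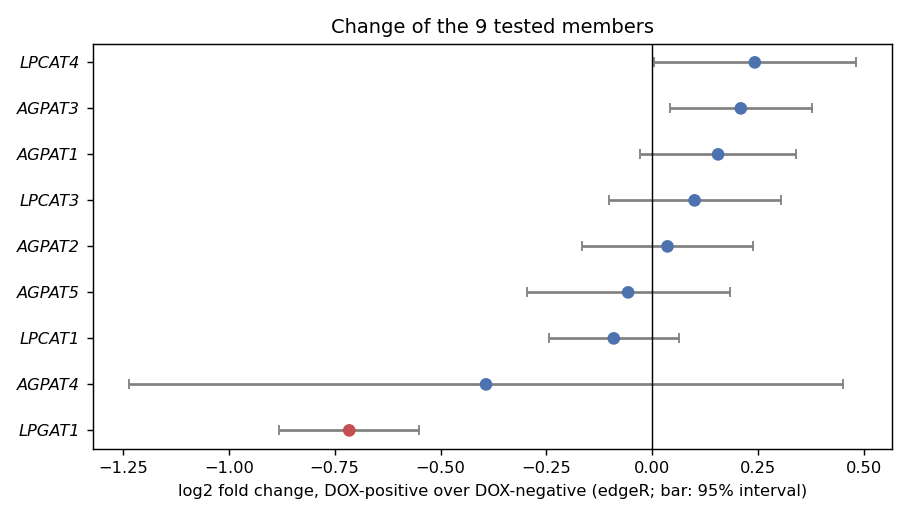
Log2 fold change (edgeR, DOX-positive over DOX-negative) of the 9 members that passed the count filter, each with its 95% interval, and LPGAT1 in red. LPGAT1 is at -0.72, the intervals of AGPAT3 and LPCAT4 lie above 0 without adjustment for the number of genes, and that of AGPAT4 is the widest.

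Levels were next compared between the members per unit of gene length. In the deposited TPM of the DOX-negative cells, AGPAT2 was highest at 32.8 ± 5.79 TPM (SD, n = 3), followed by LPCAT1 at 22.9 ± 3.37, LPGAT1 at 17.6 ± 1.98 and AGPAT3 at 10.9 ± 2.13. LPCAT3 (4.24 ± 0.917), AGPAT5 (3.82 ± 0.325) and AGPAT1 (3.59 ± 0.770) came next, then LPCAT4 at 1.57 ± 0.307, and AGPAT4 and LPCAT2 were below 1 TPM. The ranges of LPCAT1 and LPGAT1 overlapped, but within each of these libraries LPCAT1 was the higher. LPCAT1 was at 23.9, 25.7 and 19.2 TPM in DOX-negative replicates 1, 2 and 3, and LPGAT1 at 17.4, 19.7 and 15.7 TPM. The ranges of LPCAT3, AGPAT5 and AGPAT1 overlapped in turn, and their order differed between libraries. The TPM of all genes carried a library-wide component, because the median ratio of TPM to CPM ran from 0.816 of its mean in DOX-positive replicate 2 to 1.23 of it in DOX-positive replicate 1. RN7SK, a short nuclear RNA, held 21.2% to 27.1% of the TPM total.

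The gene length behind the TPM was not the same as the annotated length for every member. Taking counts over TPM as the length used, and setting LPGAT1 to its merged exons of 8571 bases in GENCODE v29, the length used for AGPAT1 was 4.88 times its merged exons. It was 1.93 times for LPCAT1 and 1.48 times for AGPAT5, and for the other 7 members it was between 0.774 and 1 times. The levels were therefore also computed as CPM per kilobase of merged GENCODE exons, a scale chosen after the data were seen. On that scale LPCAT1 was highest in the DOX-negative cells at 83.0 ± 1.46 CPM per kilobase, above AGPAT2 at 56.1 ± 2.88. LPGAT1 at 33.2 ± 1.65 and AGPAT1 at 32.6 ± 3.17 overlapped, so AGPAT1 moved from rank 7 to rank 4. AGPAT3 (19.1 ± 1.37), AGPAT5 (10.7 ± 0.813), LPCAT3 (7.48 ± 0.704) and LPCAT4 (2.28 ± 0.167) followed with no overlap between neighbors.

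**Figure D3:**
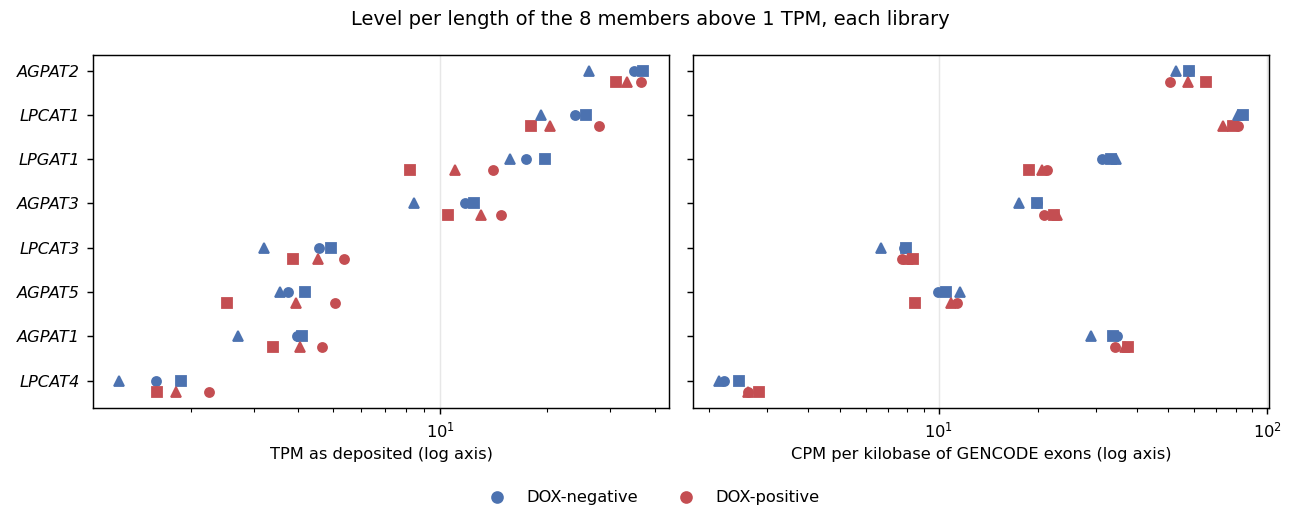
Levels per length of the 8 members above 1 TPM in each library, as deposited TPM (left, log axis) and as CPM per kilobase of merged GENCODE exons (right, log axis), DOX-negative in blue and DOX-positive in red, with circles, squares and triangles for replicates 1, 2 and 3. LPGAT1 has rank 3 without DOX on both scales, and AGPAT1 rises from 3.59 TPM near the bottom to 32.6 CPM per kilobase beside LPGAT1.

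With DOX, LPGAT1 was at 20.2 ± 1.31 CPM per kilobase, below all libraries of AGPAT1 (36.4 ± 1.74) and overlapping AGPAT3 (22.0 ± 0.983). Its share of the summed CPM per kilobase of the 10 genes was 13.6% ± 1.01 without DOX and 8.61% ± 0.779 with DOX (SD, n = 3). In TPM the share was 18.2% ± 1.28 and 11.7% ± 1.18. The sum of the other 9 genes was 201 to 217 CPM per kilobase without DOX and 209 to 223 with DOX, and these ranges overlapped.

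The enzymes around these acyltransferases were described from 9 lists written from general knowledge, but with earlier results of these data known. The lists held 70 genes, of which 60 passed the count filter. Of the 60, 4 were called higher and 0 lower by edgeR, or 6.67%, against 4.87% of all tested genes called in either direction and 2.91% called higher, and their median log2 fold change was 0.049 against 0.00034 over all tested genes. The number moved with single libraries, as did the calls over all genes, which were 829 in the main fit. It was 0 without DOX-negative replicate 2 (127 calls over all genes) and 0 without DOX-negative replicate 3 (58 calls). Leaving out DOX-positive replicate 3 gave 1 (375 calls), and leaving out DOX-positive replicate 1 gave 6 (1035 calls). It was 0 in each fit of TPM, where 30, 35 and 0 of all genes were called. With so few calls over all genes, the counts of 0 do not single out the pathway genes. DESeq2 called 4 higher and 2 lower, with 1354 calls over all genes.

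Upstream of the AGPAT step, glycerol-3-phosphate acyltransferases make LPA from glycerol-3-phosphate. GPAT3 rose from 1.91, 1.47 and 1.58 CPM to 2.47, 2.29 and 3.20 CPM, with no overlap and a log2 difference of 0.69 (SE 0.17, adjusted p = 0.045), a call that was lost in 7 of 17 alternatives. Of the list, 1 of 3 tested members was called. This count and those of the lists below are to be read against 4.87% of all tested genes. Acyl-CoA synthetases activate the fatty acids that all these acyltransferases use, and 1 of their 5 genes was called. ACSL5 rose from 1.82, 1.24 and 1.79 CPM to 2.39, 2.89 and 3.65 CPM (log2 fold change 0.89, SE 0.20, adjusted p = 0.026), and its call was lost in 5 of 17 alternatives. ACSL5 was at 0.234 TPM without DOX, a low level beside ACSL1 at 9.73 TPM, and it overlaps ZDHHC6 in the names table.

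Downstream, phosphatidate phosphatases remove the phosphate of the AGPAT product. They were listed together with the diacylglycerol acyltransferases DGAT1 and DGAT2, and 1 of the 8 tested genes of that joint list was called. PLPP3, a membrane-bound lipid phosphate phosphatase that also hydrolyzes LPA, rose from 20.5, 18.2 and 16.6 CPM to 23.8, 27.3 and 33.1 CPM. The groups did not overlap (log2 fold change 0.61, SE 0.12, adjusted p = 0.020), and the call was lost in 6 of 19 alternatives. Among 12 tested head group enzymes 1 was called, CHPT1, which joins phosphocholine to diacylglycerol. CHPT1 rose from 8.83, 8.92 and 9.62 CPM to 10.9, 11.7 and 14.1 CPM (log2 fold change 0.42, SE 0.11), but its adjusted p of 0.0498 was at the threshold and the call was lost in 14 of 19 alternatives.

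The remaining lists had 0 calls by edgeR, DESeq2 or limma-voom, and their counts at an unadjusted p under 0.05 are to be read against 21.1% of all tested genes. The other lysophospholipid acyltransferases were positive in 5 of 5 genes, against 50.1% of all tested genes, with a median log2 fold change of 0.15 and 2 at an unadjusted p under 0.05, and their most abundant gene by TPM, MBOAT1, was at 63.9 ± 1.25 CPM without DOX and 77.7 ± 8.94 CPM with DOX (log2 fold change 0.28, SE 0.087, adjusted p = 0.083). In the CDP-diacylglycerol branch, the route to phosphatidylinositol and the phosphatidylglycerol on which LPGAT1 acts after deacylation, 3 of 7 genes had an unadjusted p under 0.05. Its most abundant gene, CDIPT, the phosphatidylinositol synthase, had a log2 difference of 0.21 (SE 0.083, adjusted p = 0.17).

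The phospholipases that release lysophospholipids were tested in 9 of 13 genes, with 2 at an unadjusted p under 0.05. Their most abundant gene, PLA2G16 (now PLAAT3), was at 0.21 (SE 0.089, adjusted p = 0.19). For the lysophospholipases the unadjusted count was 0 of 7, and LYPLA1, at 106 ± 11.0 and 102 ± 14.9 CPM, had a log2 difference of -0.055 (SE 0.11, adjusted p = 0.82). The LPA producer and receptors had 4 of 7 genes tested and an unadjusted count of 0. LPAR2, their most abundant gene, was at 17.1 ± 1.12 and 19.7 ± 2.37 CPM, and the log2 fold change was 0.21 (SE 0.10, adjusted p = 0.28).

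**Figure D4:**
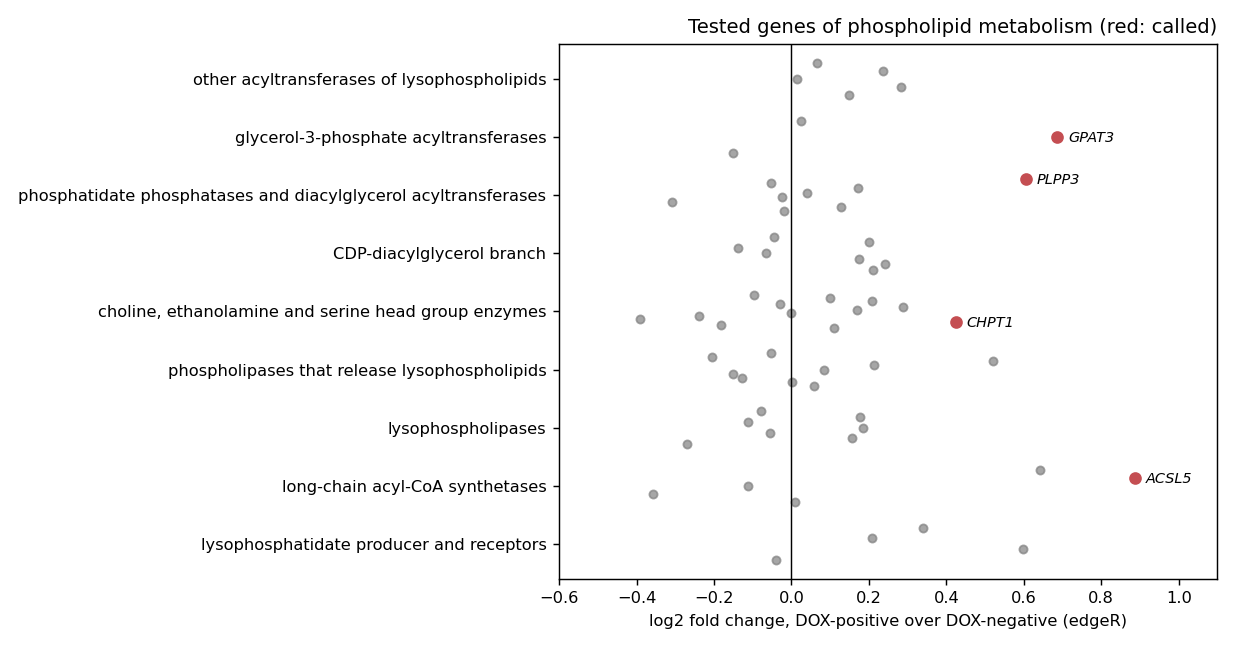
Log2 fold change (edgeR, DOX-positive over DOX-negative) of the 60 tested genes in 9 lists of phospholipid metabolism, a point for each gene, with genes called at an adjusted p under 0.05 in red. The 4 called genes, GPAT3, PLPP3, CHPT1 and ACSL5, are all on the higher side, and the other 56 lie between -0.39 and 0.64.

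The genes whose pattern over the 6 libraries was most like that of LPGAT1 were found by the root mean square (RMS) difference between log2 CPM values centered on their means, among the 14587 genes that averaged 50 or more counts. The closest was TP53INP1, a p53-inducible gene of the stress response, with an RMS difference of 0.037 on the log2 scale, followed by UBE2Q2 (0.051), ELFN1 (0.058), PTPN20 (0.058) and SNHG14 (0.072). TP53INP1 was at 79.6, 81.1 and 86.5 CPM without DOX and at 50.6, 44.2 and 51.0 CPM with DOX. Each of the 5 was thus lower in all DOX-positive libraries, which the measure selects for. UBE2Q2 has pseudogenes, and TP53INP1 and SNHG14 overlap other genes, so these counts are uncertain. Among the members that averaged 50 or more counts, LPCAT1 had the smallest RMS difference, 0.32, at rank 3568. The centered LPGAT1 values were 0.28 to 0.42 without DOX and -0.46 to -0.28 with DOX. A gene that did not vary would thus have a difference of similar size, and the LPCAT1 value shows no shared pattern.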

How the data were processed

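Total RNA of 3 DOX-negative and 3 DOX-positive cultures was made into stranded mRNA libraries, per the labels. The deposited tables hold unnormalized read counts for 28008 gene symbols and the authors' TPM for 25673. The submitters' processing notes name STAR, DESeq2 and GRCh38, whereas the annotation, the counting strand and the TPM gene length are not given in the sources used here. The counts of 17026 genes were fitted in edgeR 4.0.16 under R 4.3.3 (filterByExpr, TMM, robust glmQLFit, glmQLFTest) without covariates, with Benjamini-Hochberg adjustment and a threshold of 0.05. SE values were derived from the F statistic and 95% intervals from its degrees of freedom. Alternatives used DESeq2 1.42.0, limma 3.58.1, other scalings, filters and TPM pseudocounts, a length correction and a replicate block. In simulated data with a common dispersion for all genes, 100% of 200 genes changed by a log2 fold change of 1 were recovered among 16900 tested. The tested members other than LPGAT1 had log2 fold changes from -0.39 to 0.24, and recovery at such sizes was not simulated. Pathway lists name up to 4 called genes each or, where no gene was called, the most abundant by TPM. Members and lists were chosen with earlier results of these data known. Replicate pairs of a group differed beyond sampling noise (chi-square per degree of freedom 15.6 to 95.1). "Cultured in triplicate" is all that is stated on replicates, so p-values measure the spread between these samples. Coordinates come from GENCODE v29, and gene overlaps and older symbols (2 genes) from RefSeq (GRCh38.p14).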

Additional observations from a re-analysis of the deposited data

How the results depend on the processing

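LPGAT1 lay between -0.75 and -0.64 on the log2 scale in 19 of 19 alternatives. This is a description, because LPGAT1 was chosen for its fall. Its groups did not overlap in CPM or TPM, so its direction could hardly reverse. The number of other members called stayed at 0 in all 19, including the fits that called few genes at all. AGPAT4 had no adjusted p in the DESeq2 fit. Of 149 values of those members, 146 kept their direction, and all that had an adjusted p kept their side of the threshold. The exceptions changed sign: AGPAT2 was at -0.011 without DOX-negative replicate 3 and at -0.056 when DOX-positive replicate 2 was left out (range on leaving out 1 library -0.056 to 0.12), and AGPAT5 was at 0.064 when DOX-positive replicate 2 was left out (range -0.14 to 0.064). Without a sign change, leaving out 1 library moved AGPAT1 to between 0.073 and 0.21, LPCAT3 to between 0.020 and 0.15 and AGPAT4 to between -0.71 and -0.15, with the lowest AGPAT1 and LPCAT3 values without DOX-negative replicate 3. The 4 called pathway genes became 2 with no scaling factors, 2 with limma-voom, 2 without robust estimation and 0 in all 3 TPM fits, and leaving out 1 library gave from 0 to 6. Over all genes, 829 calls became 1354 with DESeq2, 30 on log2(TPM + 1) and 35 on log2(TPM + 0.1) at a mean TPM of at least 1, and 0 on unfiltered log2(TPM + 1), where 1248 had an unadjusted p under 0.05. Called genes were 59.8% higher by edgeR, and 43.3% and 45.7% higher in the first 2 of those TPM fits. Leaving out 1 library gave from 58 to 1035 calls, the fewest without DOX-negative replicate 3 and then without DOX-negative replicate 2 (127) and DOX-positive replicate 3 (375). The cause of these shifts was not tested. Adding a replicate block gave 998 calls, which include 750 of the 829, with 5 in the pathway lists (4 higher and 1 lower) and 0 members, but the numbers did not pair the samples (correlations of deviations of -0.34, 0.011 and -0.12). By CPM per kilobase, LPGAT1 stayed at rank 3. Depth limits AGPAT4 and LPCAT2.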
